A study of Drosophila melanogaster with 2 samples.

Results

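The 8 Sox genes of Drosophila melanogaster examined here, Sox102F, SoxN, D, Sox21a, Sox21b, Sox14, Sox100B and Sox15, were picked by gene name from the fly annotation, out of 13945 protein-coding genes. Each locus was the gene body with up to 25 kb on either side, stopping at the next Sox gene. The loci covered 448.7 kb and held 28 of the 7055 optimal peak summits of a chromatin immunoprecipitation of Sox102F-GFP, together with 96 weaker entries of the pooled list. By its name that list holds peaks and background, and the 96 had −log10 q-values of 0.273 to 2.46. Both samples belonged to a single group, labelled biological replicates 1 and 4, of whole white prepupae of both sexes from the strain Sox102F-GFP. That line carries Sox102F joined to eGFP at the C terminus, and the precipitating antibody recognised GFP, although another label gives Sox102F as the antibody. The sources used here give neither the position nor the copy number of the inserted tagged gene, so tagged and endogenous copies of the Sox102F locus cannot be told apart. No untagged line or other stage was analysed here. The lists hold no read counts, so sequencing depth is unknown, and peak signal is the authors' own value per peak, used to rank and describe entries within a list.

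SOX proteins bind the minor groove of DNA through an HMG domain and bend it, and they usually act with partner factors. The fly genes examined here fall into groups that are also found in mammals. SoxN, D, Sox21a and Sox21b belong to SoxB, Sox14 to SoxC, Sox102F to SoxD, Sox100B to SoxE and Sox15 to SoxF. In mammals, SoxD proteins are described as modulating the action of other SOX proteins at shared targets. Peak positions show where Sox102F-GFP was enriched at Sox genes, and transcription of those genes was not measured.

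The sequences below lie under all 5 listed summits of Sox102F and under the strongest summit of 4 other loci. They are the plus strand of dm6, in lower case. Capitals mark the word ACAAT, the word ACAAAG or, for the GAGA factor, the word GAGAG, read on either strand. The first window covers both summits at the internal start of Sox102F, the gene of the tagged protein, and the next 3 are its other summits.
Sox102F internal start, chr4:807532-807831: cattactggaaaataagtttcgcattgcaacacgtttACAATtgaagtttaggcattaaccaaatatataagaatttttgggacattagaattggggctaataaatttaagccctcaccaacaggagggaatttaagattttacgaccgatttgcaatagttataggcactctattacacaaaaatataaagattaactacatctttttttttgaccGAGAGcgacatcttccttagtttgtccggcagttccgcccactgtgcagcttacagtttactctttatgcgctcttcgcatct
Sox102F first intron, chr4:829911-830011: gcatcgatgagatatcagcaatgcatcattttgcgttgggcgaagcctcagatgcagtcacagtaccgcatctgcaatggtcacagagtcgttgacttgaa
Sox102F first intron nearer the start, chr4:833115-833215: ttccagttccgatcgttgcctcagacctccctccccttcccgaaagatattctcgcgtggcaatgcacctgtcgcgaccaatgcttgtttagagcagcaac
Sox102F upstream of the first start, chr4:834738-834838: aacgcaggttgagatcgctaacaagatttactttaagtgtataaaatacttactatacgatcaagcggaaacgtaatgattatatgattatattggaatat
SoxN downstream, chr2L:8834964-8835064: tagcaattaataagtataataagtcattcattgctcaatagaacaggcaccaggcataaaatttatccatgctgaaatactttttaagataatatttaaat
Sox21b upstream, chr3L:14131715-14131815: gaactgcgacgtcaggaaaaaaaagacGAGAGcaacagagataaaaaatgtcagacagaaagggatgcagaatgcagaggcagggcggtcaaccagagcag
Sox21a locus, at the start of CG8100, chr3L:14083360-14083460: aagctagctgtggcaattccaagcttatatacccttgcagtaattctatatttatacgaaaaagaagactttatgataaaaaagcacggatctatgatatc
Sox100B locus, in an intron of dco, chr3R:31059154-31059254: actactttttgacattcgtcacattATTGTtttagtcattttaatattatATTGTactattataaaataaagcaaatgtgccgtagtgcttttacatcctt

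ACAAT is the core word bound by many SOX proteins, AACAAT a longer form of it, and ACAAAG a related word. The Sox102F internal window held 1 ACAAT, 13 bp to the left of its stronger summit. In the Sox100B locus, the window held 2 ACAAT matches on the minus strand, of which 1 extended to AACAAT. The other 3 Sox102F windows and those of SoxN, Sox21b and Sox21a held none. The Sox21b window and the weaker part of the Sox102F internal window each held 1 GAGAG, the word bound by the GAGA factor. The window at D lies in an annotated UTR and is not printed. It held 4 GAGAG matches and no ACAAT.

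At its own gene the tagged protein had 5 listed optimal summits. No other Sox gene had as many when only summits nearest to the Sox gene's own start are counted. Its body, of 33958 bp, is also the longest among the Sox genes. The locus had 5.96 optimal summits per 100 kb, which 61.4% of protein-coding loci drawn with the same flanks did not exceed. Sox102F (FBgn0039938, chromosome 4, 800436 to 834393, minus strand) has transcripts starting at 834393, 807347 and 804080. Chromosome 4, which is small and largely heterochromatic, had 31 optimal summits in all. The strongest of the 5 (summit 807582, 235 bp upstream of the start at 807347) had a signal of 364.2, with 137.1 in replicate 1 and 213.5 in replicate 4. It ranked 2 among the 31 summits of the chromosome, whose median signal was 116.0, after a summit of 626.2 at 9628 bp from the nearest start, that of Cals. A companion summit lay 204 bp further upstream, at 807786, with a signal of 163.1. Both summits lie in the long intron of the transcript that starts at 834393.

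The other 3 summits lay around the first start of Sox102F. A summit 4432 bp into the gene (829961) had a signal of 145.9, with 43.3 in replicate 1 and 96.1 in replicate 4. Another 1228 bp into the gene (833165) had a signal of 103.2, with replicate values of 53.1 and 49.0. Replicate 4 was higher at 3 of the 4 Sox102F summits with an entry in both replicate lists, the pair at the internal start among them. Over all optimal summits the log2 ratio of replicate 4 over replicate 1 had a median of 0.04 (quartiles -0.31 to 0.37). Whether the Sox102F summits differ from this was not tested.

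The remaining Sox102F summit, 395 bp upstream of the first start (834788), had a signal of 122.5 in the pooled list and no entry within 100 bp in either replicate list. Replicate 1 had an entry of 52.9 at a distance of 139 bp, and replicate 4 had none within 500 bp. Only 17 of the 7055 optimal summits (0.241%) likewise lacked an entry within 100 bp in both lists, and 117 (1.66%) had no replicate 4 entry within 500 bp. The summit at 807786 also differed between lists. Its pooled signal of 163.1 was 2.22 times the sum of its replicate signals, 31.5 in replicate 1 and 41.8 in replicate 4. Over all 6458 optimal summits with both entries the median of that ratio was 1.00 (quartiles 0.985 to 1.03), and 2 summits, including this one, were at or above 2.22. At the other Sox102F summits the ratio ran from 1.01 to 1.05.

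Below the threshold, Sox102F had 10 weaker pooled entries, of which 9 lay inside the gene. They spanned signals of 21.2 to 75.8, and the highest, at 830161, was next to the optimal summit at 829961. No optimal summit lay in the bodies of the neighbours fd102C, a forkhead gene, or MED26, a Mediator subunit gene. With replicate 1 alone the locus had 4 of the 7055 strongest entries, and with replicate 4 alone 5.

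**Figure D1:**
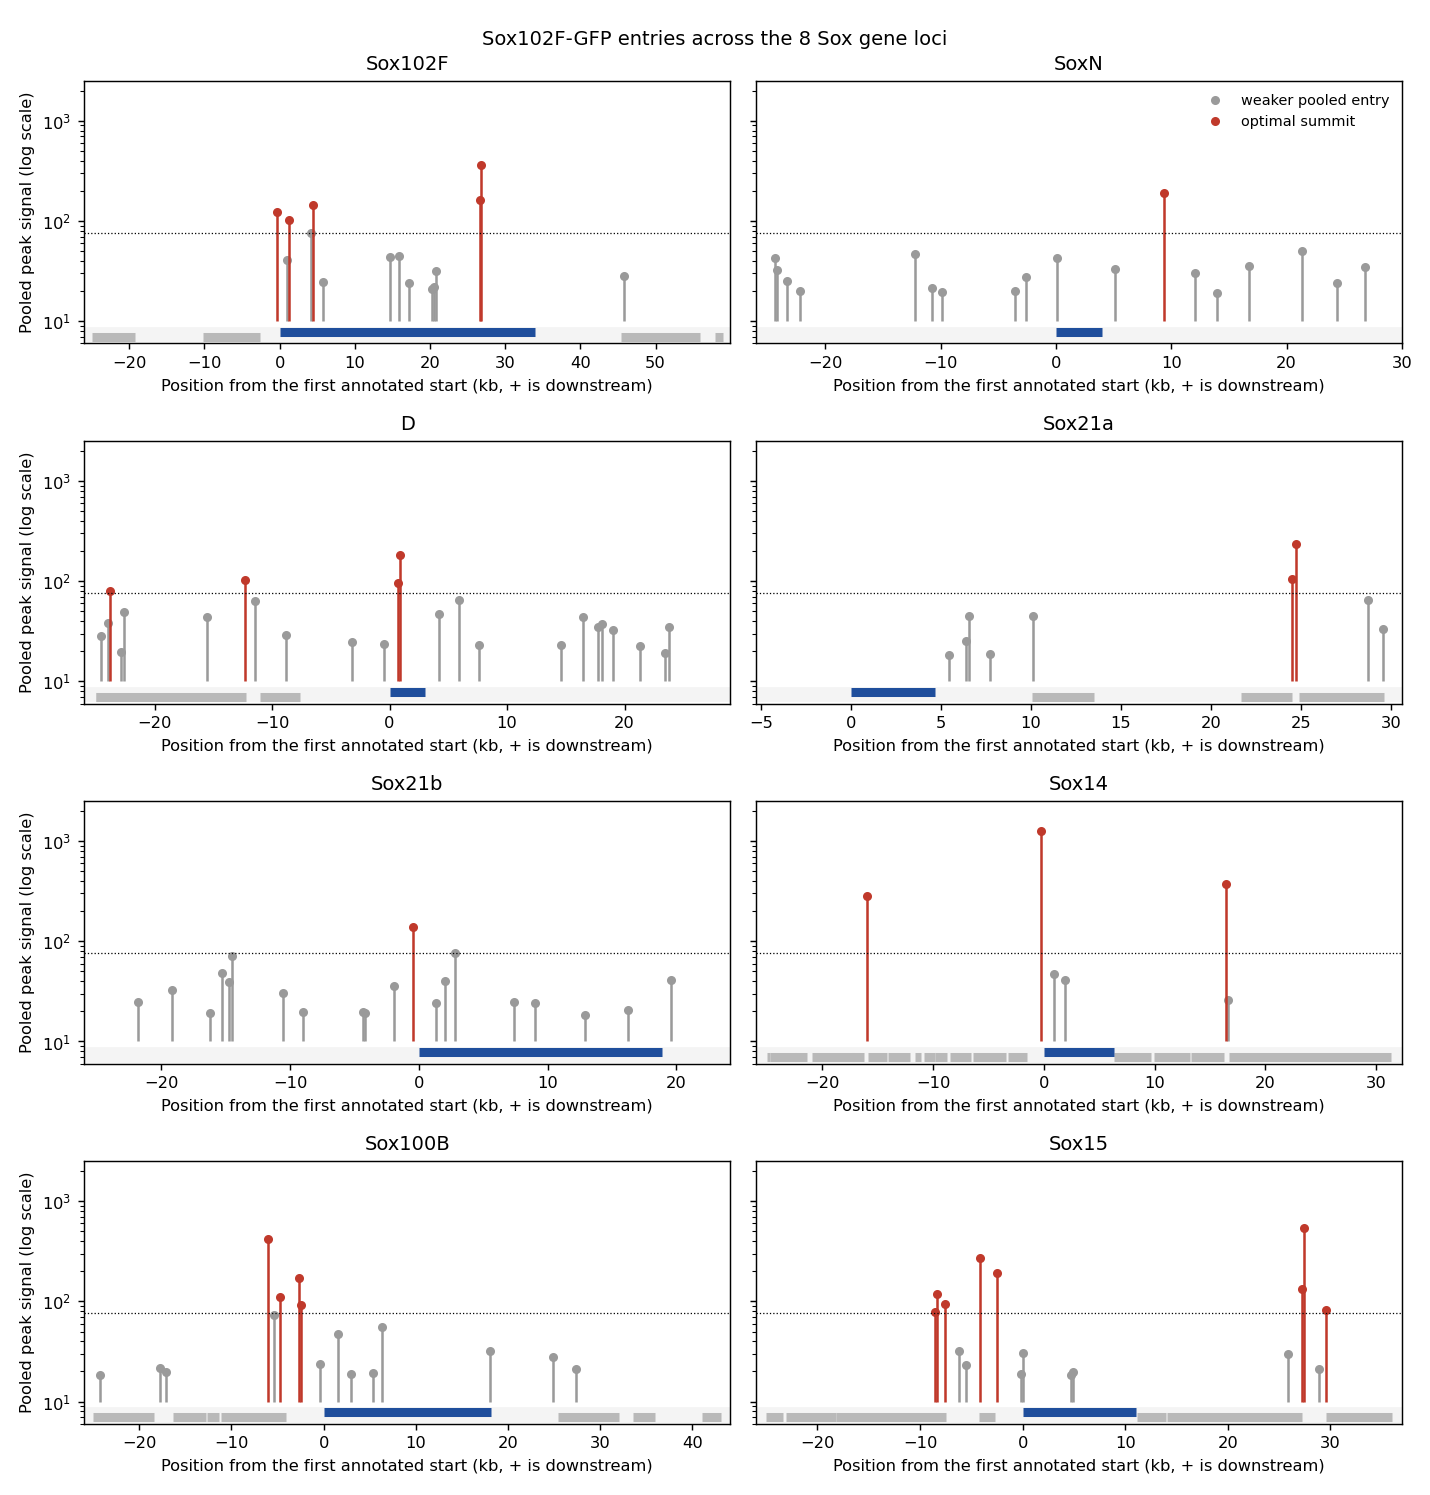
Signal of each pooled entry (log axis, stems drawn from 10) against its position from the first annotated start of the Sox gene, in kb with transcription to the right, for the 8 loci. Red marks optimal summits, grey weaker entries, the dotted line the lowest optimal signal of 76.7, the blue bar the Sox gene and grey bars other protein-coding genes. Sox14 carries the highest stem, 1253, just upstream of its start, and Sox15 has its 8 optimal summits outside its own body.

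Among the SoxB genes, D and Sox21b had optimal summits at their starts, whereas the nearest optimal summits of SoxN and Sox21a lay far from their starts. D (Dichaete, FBgn0000411, 3L, 14175610 to 14178620, minus strand) functions in segmentation and neural development and has starts at 14178620 and 14177537. Its summit at 14177708 lay 171 bp upstream of the inner start, inside the longer transcripts, with a signal of 183.0 and replicate values of 72.0 in replicate 1 and 112.1 in replicate 4. A companion summit 201 bp away, at 14177909, had a signal of 96.1. Replicate 4 had 50.01 there, and replicate 1 had no entry within 100 bp, its nearest being 18.2 at 109 bp. With replicate 1 alone the D locus had 2 of the strongest entries, and with replicate 4 alone 4. Both D windows held 4 GAGAG matches, the highest number among the 28. The other 2 summits in the D locus lay at other genes. The summit at 14190921, 12301 bp upstream of D, was 48 bp from a start of nuf and had a signal of 103.4 (55.3 and 48.0 in replicates 1 and 4). That at 14202387 was 936 bp from a start of saturn, within nuf, and had a signal of 79.0.

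Sox21b (FBgn0042630, 3L, 14112405 to 14131324, minus strand) had 1 optimal summit, at 14131765, 441 bp upstream of its first start. The signal was 140.0, with 71.5 in replicate 1 and 66.6 in replicate 4, so the replicates were close. Just below the optimal threshold, an entry at 14128506 in its intron had a signal of 76.4, with 30.8 in replicate 1 and 45.9 in replicate 4. Replicate 4 alone placed 2 entries of the Sox21b locus in its strongest 7055, against 1 with replicate 1 alone.

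Sox21a (FBgn0036411, 3L, 14103481 to 14108118, minus strand), which acts in the intestinal stem cell lineage, had no entry of any strength inside its body. The pooled entry nearest to its start, with a signal of 41.2, lay 3579 bp upstream, between Sox21a and Sox21b. The 2 optimal summits of its locus were at CG8100, about 24.5 to 24.7 kb from the Sox21a start. That at 14083410, 205 bp upstream of a CG8100 start, had a signal of 237.0 with replicate values of 113.7 and 117.2. That at 14083621, 6 bp from a start, had a signal of 105.7, with 18.5 in replicate 1 and 77.6 in replicate 4, the widest replicate difference among the members (log2 ratio of replicate 4 over replicate 1, 2.07). With replicate 1 alone the Sox21a locus had 1 of the strongest entries, and with replicate 4 alone 2.

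Sox21a, Sox21b and D lie in a row on 3L, over 75.1 kb. That stretch held 3 optimal summits and 30 weaker entries, or 3.99 and 39.9 per 100 kb, beside 5.27 and 17.1 per 100 kb over the 6 arms. Weak entries were therefore listed more closely here than in the genome, while optimal summits were not. The median signal of the 30 weaker entries was 31.5. They come from a list that by its name includes background, and whether they mark binding was not tested. The 44.3 kb between Sox21b and D held 1 optimal summit and 22 weaker entries, 49.7 of the latter per 100 kb, with signals of 19.1 to 70.6. The whole neighbourhood with 25 kb on each side held 7 optimal summits and 46 weaker entries. Its replicate lists had 50 entries in replicate 1 and 47 in replicate 4, of which 4 and 8 were among the 7055 strongest of their list.

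SoxN (FBgn0029123, 2L, 8825645 to 8829670, plus strand), needed for the formation of neural progenitors in the embryo, had a single optimal summit, at 8835014, 9369 bp downstream of its start and beyond its end. The signal was 191.0, with 88.1 in replicate 1 and 99.3 in replicate 4. No other annotated start was nearer to it. At the SoxN start itself lay a weaker entry, 103 bp inside, with a signal of 43.2. Among the 17 weaker entries of the locus, signals ran from 19.1 to 50.4.

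Sox14 had the strongest summit of the family. Sox14 (FBgn0005612, 2R, 23978801 to 23985177, plus strand) is an early gene of the response to the moulting hormone ecdysone and is needed for the pruning of neurites in metamorphosis. The summit at 23978562, 239 bp upstream of the first of its 3 starts, had a signal of 1253, with 597.2 in replicate 1 and 656.6 in replicate 4. It ranked 46 among the 7055 optimal summits, 50 in the list of replicate 1 and 41 in that of replicate 4. Among the 2829 protein-coding genes with a summit within 1 kb of a start, 98.4% had a strongest summit of at most this signal. The other 2 optimal summits of the locus belonged to neighbours by position. One (23962824, signal 280.9) was 132 bp from a start of Fmo-1, which encodes a flavin-containing monooxygenase, and the other (23995275, signal 372.7) was 220 bp from a start of CG3860. Only 3 weaker entries lay in the locus, 2 of them inside Sox14. Optimal summits thus made up 3 of its 6 pooled entries (50%), beside 23.5% in the whole pooled list. The share was also 50% in the Sox15 locus, with 8 of 16.

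Sox100B and Sox15 had optimal summits around them but none for which their own start was the nearest. Sox100B (FBgn0024288, 3R, 31065253 to 31083407, plus strand), a SoxE gene needed in the testis, had 4, all upstream, 2.46 to 6.05 kb from its start. All were nearer to a start of dco, which encodes the casein kinase Doubletime of the circadian clock. The strongest (31059204), in an intron of dco, had a signal of 415.6, with 258.6 in replicate 1 and 152.5 in replicate 4. The summits between the genes, at 31062595 and 31062798, had signals of 170.2 and 93.0 and lay about 2.5 kb upstream of Sox100B. Inside Sox100B were 5 weaker entries, the highest of them 55.3.

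Sox15 (FBgn0005613, 2R, 14201390 to 14212413, minus strand), which acts in the socket cells of sensory bristles and in wing development, had 8 optimal summits in its locus, none within 2.5 kb of its start. The nearest (14214941), 2528 bp upstream, had a signal of 192.1. It lay 882 bp from the annotated start of a short RNA within mir-308, inside RpS23. The nearest protein-coding start, that of RpS23, was 1637 bp away. The strongest (14184934, signal 541.8, with 254.8 in replicate 1 and 289.6 in replicate 4) lay 270 bp from a start of Sdb, more than 27 kb downstream of the Sox15 start. A summit on the start of the ribosomal protein gene RpS23 (14216578) had a signal of 269.9. The remaining 5 lay nearest to Sdb or CG8468, with signals of 77.5 to 132.1. At the Sox15 start itself lay 2 weak entries, of 30.7 and 18.8. The Sox15 locus was the densest of the 8, with 13.1 optimal summits per 100 kb, which 87.9% of protein-coding loci drawn with the same flanks did not exceed. Its count was 5 with replicate 1 alone and 6 with replicate 4 alone. Among the 3528 strongest optimal summits it was 3, as many as in the shorter Sox14 locus, so Sox15 was not the densest there.

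**Figure D2:**
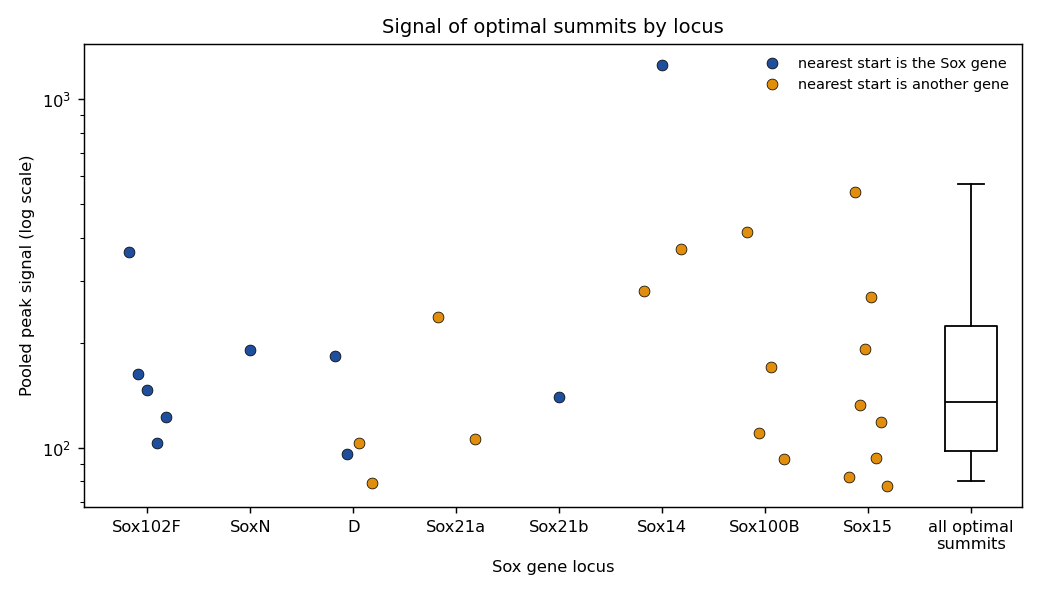
Pooled signal (log axis) of the 28 optimal summits by locus, blue where the Sox gene's own start was the nearest annotated start and orange where another gene's was, with a box for all 7055 optimal summits (median line, quartile box, whiskers at the 5th and 95th percentiles). Sox102F, SoxN and Sox21b have blue points only, Sox21a, Sox100B and Sox15 orange points only.

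At the level of genes, 4 of the 8 (Sox102F, D, Sox21b and Sox14) had an optimal summit within 1 kb of a start, beside 20.3% of protein-coding genes. The same 4 did so with either replicate alone and among the 3528 strongest optimal summits. These 4 genes have 2 or 3 annotated starts each and the other 4 have 1, and the shares were not adjusted for this. A Sox start was the nearest annotated start of an optimal summit for 5 of the 8, the same 4 and SoxN, beside 20.9%. Optimal summits inside the body were found in 2 of the 8, Sox102F and D, beside 14.1%. With all pooled entries counted, 7 of the 8 had an entry within 1 kb of a start, Sox21a being the exception, beside 37.2%. At SoxN, Sox100B and Sox15 these were only weaker entries, with −log10 q-values of 0.289 to 1.20. Whether they differ from background was not tested. Having at least 1 optimal summit anywhere in the locus, as all 8 did, is common, since 83.1% of protein-coding genes do with the same flanks. With 8 genes chosen by family, these shares are descriptions and were not tested.

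The strongest summits at the starts of these genes ranged widely. Sox14 was at 98.4% of the genes with a summit near a start, Sox102F at 79.2%, D at 52.1% and Sox21b at 38.6%, the median of those genes being a signal of 175.4. In order, Sox14 exceeded Sox102F in both replicates (597.2 and 656.6 against 137.1 and 213.5). Sox102F exceeded D in both (72.0 and 112.1 in D), whereas D and Sox21b (71.5 and 66.6) were nearly equal in replicate 1 and differed in replicate 4.

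Over the 28 summits, 10 had the Sox gene's own start as the nearest, and 18 had another gene's. The median signal was 154.5 for the 10 (96.1 to 1253) and 125.2 for the 18 (77.5 to 541.8), so the 2 sets overlapped over most of their range. All 28 had a median of 142.9, beside 135.4 for all optimal summits. Their density was 6.24 per 100 kb, beside 5.27 over the 6 arms, and protein-coding loci drawn with the same flanks had a median of 5.39 (quartiles 1.93 to 9.44). Optimal summits made up 22.6% of pooled entries in the Sox loci, beside 23.5% of the whole list. On these measures the Sox loci lay close to the genome as a whole.

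**Figure D3:**
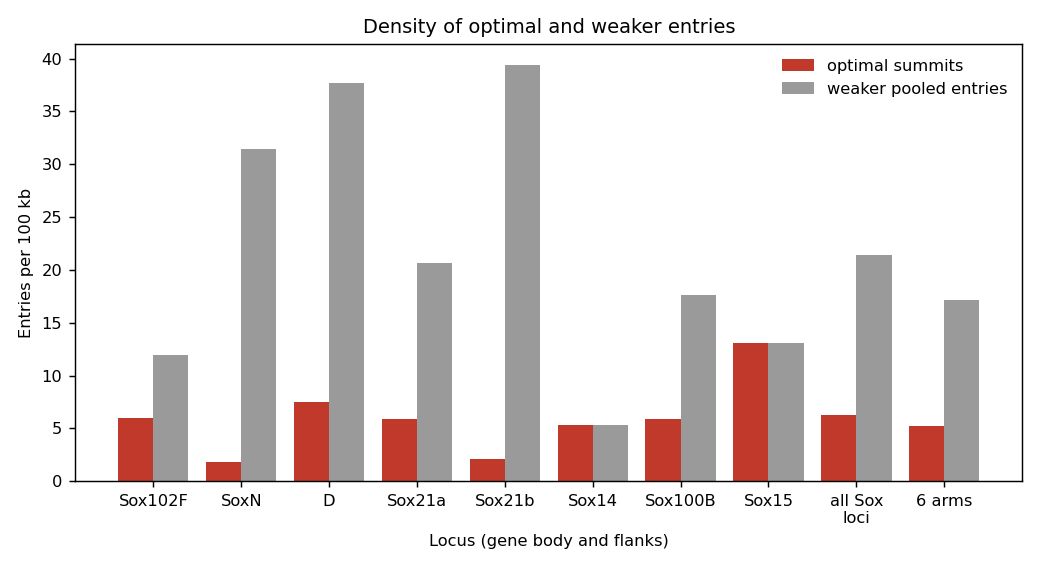
Entries per 100 kb in each Sox locus, in all Sox loci together and over the 6 chromosome arms, red for optimal summits and grey for weaker pooled entries. The grey bars of SoxN, D and Sox21b are the highest, at 31.5, 37.7 and 39.4 beside 17.1 for the 6 arms, while their red bars lie between 1.85 and 7.55. The window of Sox21b overlaps in part with those of Sox21a and D. An entry in an overlap is counted once, while each bar is divided by the full length of its window.

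Position differed more. Of the 28 summits, 17 (60.7%) lay within 500 bp of a start of any gene, beside 36.4% of all optimal summits, 6 (21.4%) in introns beside 43.2%, and 4 (14.3%) in intergenic sequence beside 17.8%. The last lay in a 3′ UTR of cg, a zinc finger gene. Starts of nuf, CG8100, Fmo-1, CG3860, dco, Sdb, RpS23 and CG8468 account for most of the 17, so that share is mainly one of neighbouring genes. The same shares in windows drawn around other protein-coding genes were not computed. Summits in close company were also frequent. Within 250 bp of another optimal summit lay 12 of the 28 (42.9%), beside 11.7% of all optimal summits. They formed 6 pairs, at Sox102F, D, CG8100, Sdb and CG8468 and between dco and Sox100B, with spacings of 199 to 211 bp. The listed intervals of both summits overlapped in every pair, and with each pair counted once the Sox loci held 22 regions, beside 6642 in the genome.

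Replicates placed most of these summits alike. An entry within 100 bp stood in both replicate lists for 24 of the 28 (85.7%), beside 91.5% of all optimal summits, and 19 (67.9%, beside 67.9%) had entries among the 7055 strongest of both. The log2 ratio of replicate 4 over replicate 1 had a median of 0.09 at the 24 summits (-0.76 to 2.07), beside 0.04 for all optimal summits (quartiles -0.31 to 0.37). Of the 24, 11 lay inside those quartiles, 6 above and 7 below. Besides the Sox102F summit at 834788, the 3 without an entry in both lists were the companion summits at D (14177909) and upstream of Sox100B (31062798) and the 3′ UTR summit of cg (14182793, signal 82.4). At 31062798 replicate 1 had 48.0 and the nearest replicate 4 entry lay 140 bp away. At the cg summit replicate 4 had 12.1 and the nearest replicate 1 entry, 35.6, lay 102 bp away.

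**Figure D4:**
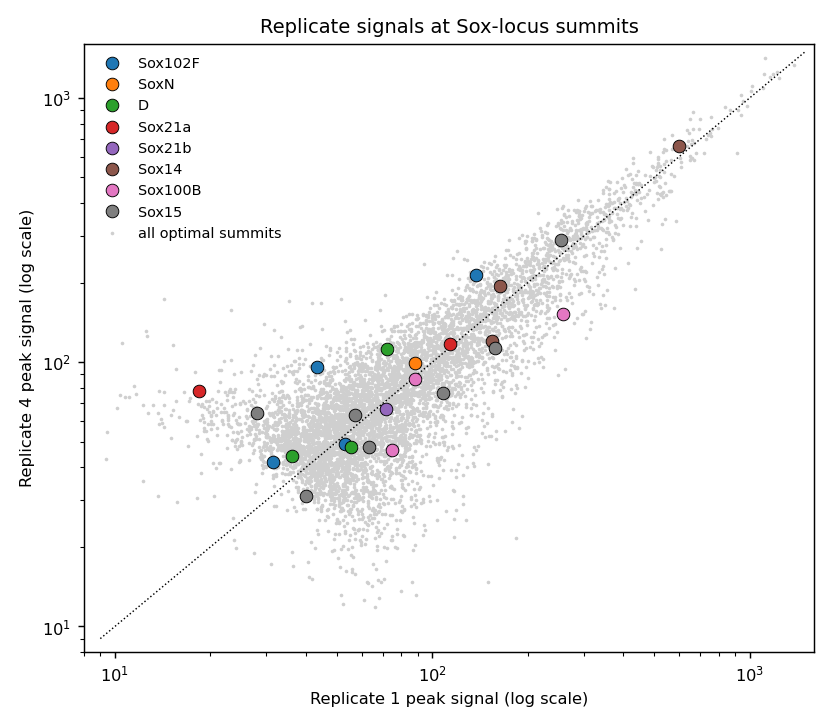
Replicate 4 against replicate 1 signal (log axes) at the 24 Sox-locus summits with an entry in both replicate lists, coloured by locus, over all optimal summits in grey, with the line of equality dotted. Sox14 sits at the upper right at 597.2 and 656.6, and the CG8100 companion summit of the Sox21a locus lies farthest from the line.

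The SOX word ACAAT was less frequent at these summits than at all optimal summits, a difference that was not tested. Within 50 bp of the summit, ACAAT stood on either strand in 5 of the 28 windows (17.9%), beside 29.0% of all optimal windows and 7 and 6 of the 28 windows centred 500 bp to the left and right. With the strongest entries of replicate 1 alone the order turned round, with ACAAT in 7 of 22 Sox-locus windows (31.8%, beside 29.3%), and with replicate 4 alone it stood in 3 of 27 (11.1%, beside 28.9%). AACAAT, which contains ACAAT, stood in 1 (3.57%, beside 12.7%), and ACAAAG in 2 (7.14%, beside 8.11%). GAGAG was in 7 (25%, beside 14.2%), and in 2 and 7 of the windows centred 500 bp to the left and right. Within 100 bp of the summit it stood in 8 of the 28 (28.6%, beside 27.7%), so the gap was not there in the wider window. The word TATCGATA of the factor Dref stood in 0 (beside 0.822%). The windows differed in base composition, with a median of 58.9% A and T in the Sox loci (36.6 to 79.2%), beside 66.3% in all optimal windows, and the part of this in the word counts was not tested. The Sox14 start window held none of the 5 words.

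A related set of genes was described in the same way. HMG domains are also found in chromatin proteins and in other transcription factors. Of 12 such genes outside the Sox family, 6 had an optimal summit within 1 kb of a start, beside the 20.3% of protein-coding genes. This share, too, was not adjusted for the number of starts and was not tested. HmgZ, a high mobility group chromatin protein gene, had the highest signal, 1208 (570.5 in replicate 1 and 642.1 in replicate 4), 609 bp from a start. Next came bbx (928.6, 211 bp) and Dsp1 (714.3, 608 bp), a corepressor gene. The Dsp1 summit was nearer to a start of CG9921. The summits of cic, a repressor acting downstream of receptor tyrosine kinases, pan, the fly TCF, and HmgD had signals of 334.4, 161.6 and 156.6. Those of HmgD and HmgZ lay close together on 2R, at 21700848 and 21703439, so the 6 genes are not all separate loci. Ssrp, Bap111, TFAM, tHMG1, tHMG2 and mael had none. Among 5 genes of POU factors, known partners of SOX proteins, 1 had such a summit, pdm3, with a signal of 85.4 (38.5 and 42.4 in replicates 1 and 4). vvl, nub, pdm2 and acj6 had none, although nub held 2 optimal summits in its body. The POU count was 0 with replicate 1 alone (beside 23.8% of protein-coding genes) and 3 with replicate 4 alone (beside 19.5%).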

How the data were processed

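Peaks were mapped by chromatin immunoprecipitation and sequencing in 2 biological replicates of 1 group. The authors' deposited narrowPeak lists on dm6 comprised 1 per replicate, 1 pooled and 1 named optimal after irreproducible discovery rate thresholding. The pooled list is named as peaks and background, the input to that thresholding. Each peak's signal, its −log10 q-value and its summit offset, a value in bp from the peak start, are as deposited by the authors. According to the deposited text records, each replicate list came from that replicate's alignments and the optimal list from the replicate and pooled lists. Neither aligner nor peak caller is named in the labels or files. The 7055 optimal entries are those of the pooled list, of 30000, at or above a signal of 76.7. The −log10 q-value reached its ceiling of 3.92 at 17 of the 28 Sox summits, so it was not used for ranking. Peak lists hold no transcript levels, so the labelled stage could not be checked against markers.

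Coordinates are dm6, counted from 1. Annotation was Ensembl release 115 without transposable elements, sequence the release 6 assembly, on arms 2L, 2R, 3L, 3R, 4 and X. Replicate entries matched an optimal summit within 100 bp. A summit in overlapping windows went to the nearer Sox gene. Just inside the 25 kb limit lay the saturn summit at 23.8 kb from D (signal 79.0), and just outside were summits at 25.9 kb from SoxN (98.3) and 26.7 kb from D (77.5). Named genes were the 8 Sox genes, genes at their summits, and the HMG domain and POU lists. Members and lists were chosen with earlier results of these data known. With 1 group no test between groups exists, and values are set beside those of all genes or summits, whose members are not replicates. Functions were tested on simulated data. The dm3 lists were not used. Python 3.11.15 with numpy 2.4.6 and matplotlib 3.10.9 was used. Alternatives covered list strength, each replicate alone, flanks, start and word windows, words and matching distance, with the merging of close summits chosen after seeing the data.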

Additional observations from a re-analysis of the deposited data

How the results depend on the processing

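The 4 Sox genes and 6 HMG domain genes with a summit near a start numbered 4 and 6 in each of the 5 alternatives run for them. Other results moved. The 3528 strongest optimal summits left 15 summits in the Sox loci, all 15 with both replicate entries (beside 95.2% of all), 3 with ACAAT (20%, beside 29.6%), a median percentile of 54.3 and 0 POU genes (beside 13.0% of protein-coding genes). Gene bodies alone left 6 summits, 5 with both entries, 1 with ACAAT and a median percentile of 57.8. The main median percentile of 53.4 among optimal summits was 54.7 with flanks of 10 kb and 63.7 with the strongest summit per region. Words gave 1 for AACAAT, 2 for ACAAAG and 8 for ACAAT within 100 bp (28.6%, beside 47.4% of all windows), where ACAAT within 50 bp gave 5. With 1 replicate left out, the lowest and highest values were 3 and 7 for ACAAT windows, 56.2 and 56.4 for the median percentile, 22 and 27 for summits, and 0 and 3 for POU genes. Without replicate 1, ACAAT stood in 3 windows and POU genes numbered 3 of 5, beside 19.5% of protein-coding genes. Without replicate 4, POU genes numbered 0, beside 23.8%, and ACAAT stood in 7 of 22 windows, a share of 31.8% beside 29.3% of all. Causes were not tested. No paired analysis was possible because there is 1 group. Depth is unknown, so the absence of an entry at a Sox start says only that none was listed among the 30000 of each list.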
